A study of Schmidtea mediterranea with 177 samples.

Results

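The cells described here are the non-muscle cells of the planarian Schmidtea mediterranea taken from the head tip, set against those taken from the posterior body. Members were chosen among the cells of the deposited count table by the annotation of each cell as muscle or non-muscle in its label, and by the region prefix of the cell name. Head tip cells came from region 1 and posterior cells from regions 7, 8, 9 and 10, counted from the head. This gave 11 head tip cells and 30 posterior cells (11, 7, 5 and 7 in regions 7 to 10), which is 41 of the 62 non-muscle cells and of the 177 cells in all. The comparison asks which transcripts, in cells that are not muscle, differ in level between the anterior end and the posterior body. All animals were asexual, of the CIW4 strain, and starved before use. They were cut into 10 regions along the anteroposterior axis, and only the midline strip of each was dissociated. Single cells with a DNA content of non-dividing cells were sorted, amplified by SmartSeq2 (a method that copies full-length polyadenylated RNA and carries no molecular identifiers), and chosen for sequencing because quantitative PCR had found the muscle transcripts collagen or troponin in them. The labels therefore describe every one of these cells as positive for a muscle marker, while the later annotation places them outside muscle. The screening limits what these cells can stand for: they are the non-muscle cells that passed a muscle test, not a random draw from either end.

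Planarian body wall muscle expresses the genes that give the adult body its regional pattern. Genes of the FGF receptor-like (FGFRL) family, whose founding planarian member is nou-darake, mark anterior domains, and Wnt ligands and posterior Hox genes mark posterior ones. Frizzled receptors carry the Wnt signal into a cell, where Axin proteins restrain it through beta-catenin. Other cell types of the body arise from neoblasts, dividing stem cells marked by smedwi-1, a PIWI protein gene. Some of their descendants form the epidermis and are marked by zfp-1 and p53. The regionally expressed genes used below are the 44 that the study mapped in muscle by in situ hybridization (mRGs), of which 43 were matched in the table. They comprise 16 with an anterior pattern, 19 with a posterior pattern and 8 with another pattern. They were selected in muscle cells of the same series, and not in the non-muscle cells.

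No animal, plate or day is named for a cell, so cells were not treated as replicates. The reads of the cells of a region were summed, which made 5 samples: 1 for the head tip and 4 for the posterior regions. The spread among the 4 posterior regions was the only error available, and the head tip, as 1 sample, was assumed to vary like them. An exact permutation of 1 sample against 4 cannot give a p under 0.2. In such sums, fewer cells of a type and less RNA per cell cannot be told apart. Levels are given as reads per 1e+06 counted reads (cpm), of a cell or of a region's sum, and a transcript was taken as detected in a cell with more than 2 reads. Shares of cells carry exact binomial (Clopper-Pearson) 95% intervals, which cover counting error only. Counting intervals of a ratio of levels are exact binomial 95% intervals on the pooled reads, which take each read as independent. Reads cluster in single cells, so these intervals are too narrow and do not cover the spread between cells or regions.

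Head tip cells had 82186 to 904349 reads (median 252828), and posterior cells 70842 to 2702758 (median 321678). Head tip cells nevertheless held more transcripts, with a median of 4588 detected (range 2150 to 5379), against 3374 in posterior cells (range 1477 to 7091). After thinning every cell to 50000 reads the medians were 2868 in head tip cells (range 1525 to 3032) and 2019 in posterior cells (range 939 to 3285). By region those thinned medians were 1872, 2719, 1773 and 2189 in regions 7 to 10, so region 8 lay near the head tip. A count of 3 reads was worth 0.846 cpm in the head tip sum and 0.175 cpm in the pooled posterior sum. Where an end had 0 reads, a fold difference given as "at least" sets that end at this floor of 3 reads. The floor is a convention, and such values are not confidence limits. The sum of region 9 was mostly 1 cell, cell r09_522, with 2702758 of 3652574 reads. Each cell name ends in a running number (r01_453), and no source says what it stands for. The numbers form 3 ranges: below 450 (A), from 450 to below 530 (B) and 530 upwards (C). The head tip had 3 cells in A, 8 in B and 0 in C, and the posterior had 1, 7 and 22, so number range and body end mostly cannot be told apart. Values within range B are given beside the results that follow.

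Of 11671 transcripts tested with edgeR, 0 passed an adjusted p of 0.05 (0.0% of those tested), and 339 (2.9%) had an unadjusted p under 0.05, of which 219 were higher (1.88%) and 120 lower (1.03%) at the head tip. On the same 5 samples, DESeq2 on the sums called 92 transcripts (0.788%), and limma on the 5 regional means of log2(cpm + 1) over cells called 3.42%. The median log2 fold change of all tested transcripts was -0.21, with 45.5% above 0, and fold changes are to be read against that shift. A description by size, with no test, took transcripts whose head tip level was at least 4-fold above the highest, or below the lowest, of the 4 posterior regions (1 cpm added to each). It held 4.7% of the tested transcripts above and 1.23% below (144 transcripts). The share above was 10.7% without region 8 and 8.69% without region 10, and the share below was 3.33% without region 9 and 2.31% without region 10. Since no transcript passed the edgeR test, the values below describe levels, and every edgeR adjusted p of a named transcript was 1.0. Of the 26 transcripts whose fold change was followed through the alternatives, DESeq2 called 12 and limma 10, and those calls are given beside the genes.

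Among anterior mRGs, 4 stood out by the share of cells that held them: ndl-4 (an FGFRL gene), fz5/8-3 (a Frizzled receptor gene), ndk (nou-darake, whose inhibition lets brain tissue form outside the head) and prep (a TALE homeobox transcription factor gene needed for anterior regeneration). These 4 were singled out after their values were seen. The ndl-4 transcript was detected in 9 of 11 head tip cells (81.8%, 95% interval 48.2 to 97.7) and in 2 of 30 posterior cells (6.67%, 0.818 to 22.1). Its level per cell ran over 0, 155 and 607 cpm (lowest, median, highest) at the head tip and reached 88.4 cpm in the highest posterior cell, with a posterior median of 0. The summed levels were 310.1 cpm at the head tip and 0, 16.1, 0 and 0 cpm in regions 7 to 10. The head tip thus lay above every posterior region, and both posterior cells were in region 8. The fitted log2 fold change was 6.47 (SE 2.35, unadjusted p = 0.0226, adjusted p = 1.0).

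The Frizzled gene fz5/8-3 was detected in 9 of 11 head tip cells and in 1 of 30 posterior cells, a region 7 cell at 262 cpm. Its levels per cell were 0, 221.5 and 1117 cpm at the head tip, and the sums were 396.4 cpm against 24.4, 0, 0 and 0 cpm in regions 7 to 10. The log2 fold change was 5.71 (SE 2.62, unadjusted p = 0.0580). No posterior region came near the head tip for this receptor. The ndk transcript was detected in 9 of 11 head tip cells and in 3 of 30 posterior cells. Its levels per cell were 0, 76.4 and 797 cpm at the head tip, and the sums were 253 cpm against 24.0, 0, 0 and 12.0 cpm (log2 fold change 4.58, SE 2.31, unadjusted p = 0.0794). The homeobox gene prep was the most widely held, with 10 of 11 head tip cells and 6 of 30 posterior cells, and every head tip cell had at least 17.0 cpm. Its sums were 326 cpm at the head tip and 1.33, 61.8, 0 and 32.7 cpm in regions 7 to 10 (log2 fold change 3.92, SE 1.92, unadjusted p = 0.0723). For all of these genes the head tip sum was above every posterior sum, while single cells of both ends overlapped. Over the alternatives limma called ndl-4 (adjusted p = 0.000165), fz5/8-3 (5.7e-05), ndk (0.000736) and prep (0.00520), DESeq2 called none of the 4, and the adjusted p of each reached 1.0 in other fits.

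The 4 genes were often detected together. They were chosen by their shares of cells at both ends, so the counts that follow result largely from that choice. Whether the genes occur together more often than their single shares imply was not tested. At least 3 of them were detected together in 9 of 11 head tip cells and all 4 in 8, whereas 0 of 30 posterior cells held 3, which allows a share of up to 11.6% (exact binomial). Within number range B, ndl-4 was detected in 6 of 8 head tip cells and 0 of 7 posterior cells, fz5/8-3 in 6 and 0, ndk in 6 and 1, and prep in 7 and 1. Thinned to 50000 reads, ndl-4 was detected in 8 head tip cells and in 0 posterior cells, and prep in 8 and 3.

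**Figure D1:**
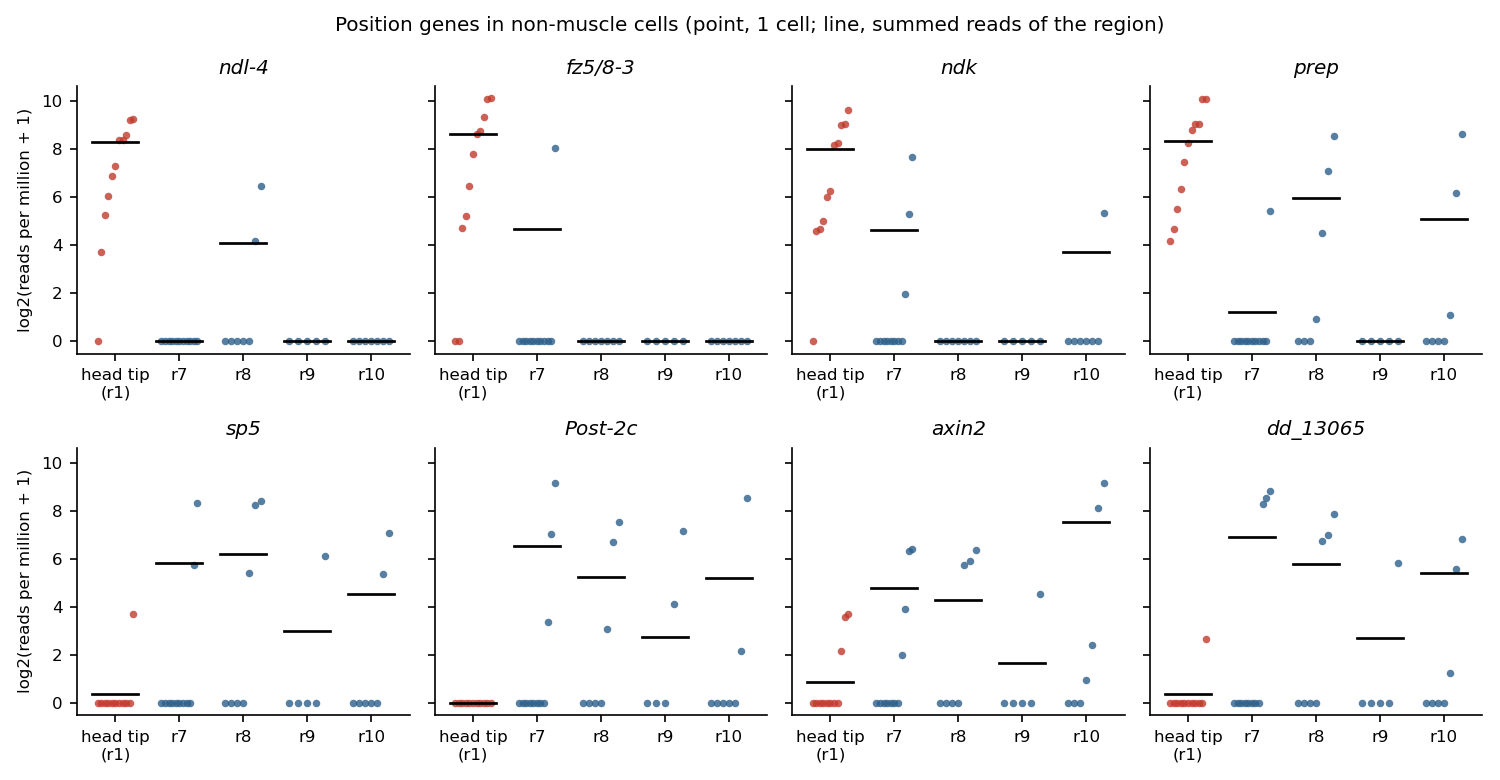
Level of 4 anterior (upper row) and 4 posterior (lower row) mRGs in each of the 41 non-muscle cells, with head tip cells left of regions 7 to 10. Each point is 1 cell, the line is the level of the summed reads of the region, and the vertical axis is log2(cpm + 1). Head tip cells hold ndl-4, fz5/8-3, ndk and prep in 9, 9, 9 and 10 of 11 cells, and no head tip cell has more than 2 reads of sp5, Post-2c, axin2 or dd_13065. Both sets were chosen after their values were seen, the posterior 4 among mRGs detected in no head tip cell.

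The other anterior mRGs were patchy. The FGFRL gene ndl-1 was detected in 4 of 11 head tip cells and 2 of 30 posterior cells, with sums of 86.6 cpm against 0.444, 0.130, 0 and 42.8 cpm (log2 fold change 2.93, SE 2.65, unadjusted p = 0.298). The FGFRL gene ndl-5 was detected in 4 and 5 cells, and its region 10 sum of 148 cpm was above the 12.7 cpm of the head tip. The Frizzled gene fz5/8-4 was detected in 3 and 3 cells, with 56.4 cpm at the head tip and 391.3 cpm in region 10, where all 3 posterior cells lay. The zinc-finger gene zic-2 was detected in 2 and 3 cells, and 1 head tip cell gave 95.9% of the head tip reads. EFR3 was detected in 3 head tip and 2 posterior cells. None of these genes separated the cells of the ends.

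Several anterior mRGs were not detected at the head tip. The FGFRL gene ndl-2 had 0 reads at both ends, and sFRP-1, a secreted Frizzled-related inhibitor of Wnt signalling, was detected in 0 of 11 head tip cells and 2 of 30 posterior cells. The Wnt inhibitor gene notum, a marker of the anterior pole, had 0 reads at the head tip and was detected in 4 of 30 posterior cells, with sums of 0 cpm against 8.88, 2.73, 0 and 0.28 cpm. At the floor of 3 reads the head tip level of notum was at least 2.89-fold lower than the pooled posterior level. The transcription factor genes zic-1 and FoxD were detected in 0 and 0 head tip cells and in 0 and 1 posterior cells. A count of 0 in 11 cells allows a share of up to 28.5%. Of the 16 anterior mRGs, 10 could be tested and 6 were held by too few cells. Of those 10, 7 were higher and 3 lower at the head tip, with a median log2 fold change of 3.04 against -0.21 over all transcripts. Of the 10, 1 was higher with an unadjusted p under 0.05 (background 1.88%) and 4 lay above the size rule (background 4.7%). The 3-cell filter admitted ndl-4, fz5/8-3, ndl-1 and EFR3 only with their head tip cells, so these counts and the median give no support of their own.

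Posterior mRGs gave the reverse picture. Of 19 in the table, 13 could be tested, and 13 of 13 were lower at the head tip in the main fit. FAM160A1, dd_15686 and ORF2-like changed sign under 3, 2 and 1 of the alternatives. The FAM160A1 level was 8.46 cpm in the head tip sum and 8.22 cpm in the pooled posterior sum. Their median log2 fold change was -6.14, or -4.18 with the genes that had 0 reads at one end placed at their bound, against -0.21 over all transcripts. Of these, 3 had an unadjusted p under 0.05 (background 1.03% of transcripts lower) and 3 lay below the size rule (background 1.23%). A gene is tested only where at least 3 of the 41 cells hold it, and a posterior mRG absent from the head tip passes this filter only by its posterior cells, so these counts and the median give no support of their own.

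Of the posterior mRGs detected in no head tip cell, the most widely held in the posterior were Post-2c (an AbdB-type Hox gene), dd_13065 (a transcript without a gene name), sp5 (a zinc-finger transcription factor gene whose vertebrate relatives are targets of Wnt signalling) and axin2 (an Axin gene, a brake on Wnt signalling). These 4 were also singled out after their values were seen. Post-2c had 0 reads at the head tip and was detected in 9 of 30 posterior cells (95% interval 14.7 to 49.4%). Its sums were 0 cpm at the head tip and 91.5, 36.3, 5.75 and 35.3 cpm in regions 7 to 10, so that the head tip level was at least 43.5-fold lower than the pooled posterior level (unadjusted p = 0.0141). The range over the posterior regions was wide but did not reach the head tip. The transcript dd_13065 had 1 read at the head tip, 0.282 cpm, against 118, 53.9, 5.48 and 41.7 cpm, and the head tip level was 0.00570 of the pooled posterior level (counting interval 0.000144 to 0.0318, unadjusted p = 0.0251).

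The sp5 transcript was detected in 0 head tip cells and in 8 of 30 posterior cells, with 1 read at the head tip. Its sums were 0.282 cpm at the head tip and 55.1, 72.9, 6.84 and 22.4 cpm in regions 7 to 10. The ratio was 0.00613 (counting interval 0.000155 to 0.0343, edgeR unadjusted p = 0.0345). The axin2 transcript was detected in 0 head tip cells and in 8 of 30 posterior cells. Its sums were 0.846 cpm, worth 3 reads, against 26.7, 18.4, 2.19 and 185 cpm (ratio 0.0167, counting interval 0.00344 to 0.0490, edgeR unadjusted p = 0.0770). Region 9, most of whose reads were from cell r09_522, had the lowest posterior sum for all 4 genes. At least 1 of the 4 was detected in 0 of 11 head tip cells and in 17 of 30 posterior cells: 7 of 11 in region 7, 4 of 7 in region 8, 2 of 5 in region 9 and 4 of 7 in region 10. In number range B, 0 of 8 head tip cells held Post-2c, dd_13065, sp5 or axin2, and 3, 4, 3 and 4 of 7 posterior cells did. The 4 were chosen as detected in no head tip cell and widely held in the posterior. The head tip counts of 0 therefore follow from that choice, and these shares give no support of their own. Over the alternatives DESeq2 called Post-2c (adjusted p = 0.0303), dd_13065 (0.0426) and sp5 (0.0490) and not axin2 (0.147), limma called none of the 4, and the adjusted p of each reached 1.0 in other fits.

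Other posterior mRGs were rarer in the posterior or were also detected at the head tip. CTNNB1 (named for its likeness to beta-catenin) was detected in 1 of 11 head tip and 12 of 30 posterior cells, hox4b (a Hox gene) in 0 and 6, wntless (a carrier of Wnt ligands to the cell surface) in 0 and 5, fz4-1 (a Frizzled receptor gene) in 0 and 4, dd_4427 in 0 and 3, and lox5a (a Hox gene) in 0 and 1. IGFALS, a leucine-rich repeat gene by its name, was present in 4 head tip and 19 posterior cells, and 1 head tip cell, cell r01_453, gave 82.7% of its head tip reads. FAM160A1 was detected in 1 and 6 cells, ORF2-like in 1 and 8 and dd_15686 in 1 and 2. The posterior Wnt ligand genes were nearly silent in these cells: wntP-2, wnt11-2 and wnt1 were detected in 0 of 11 and 0 of 30 cells, and wnt11-1 in 1 and 1.

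Among genes with other patterns, some were held at both ends and others by few cells at either. wntA, a Wnt gene of the posterior brain region, was detected in 7 of 11 head tip cells and 15 of 30 posterior cells, with 60.9 cpm at the head tip and 50.6, 67.0, 3.01 and 76.7 cpm in regions 7 to 10. The Frizzled gene fz4-4 was detected in 7 and 11 cells, sFRP-2 in 1 and 7 and dd_13735 in 7 and 28. For ptk7, a co-receptor gene of Wnt signalling, 1 read fell in the head tip and 6 of 30 posterior cells held it, with 61.0% of its posterior reads in cell r10_503. The trunk FGFRL gene ndl-3 was detected in 0 and 1 cells, the Frizzled gene fz4-3 in 0 and 1, and wnt2 in 0 and 0.

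Counted per cell, a head tip cell held a median of 5 of the 16 anterior mRGs (range 2 to 8) and a posterior cell 1 (range 0 to 4). For the 19 posterior mRGs the medians were 1 (range 0 to 3) in head tip cells and 2.5 (range 0 to 9) in posterior cells. At least 1 posterior mRG was detected in 6 of 11 head tip cells and in 29 of 30 posterior cells, and at least 1 anterior mRG in 11 of 11 and 20 of 30. Thinned to 50000 reads, the medians were 4 and 0 for anterior mRGs, and 0 and 2.5 for posterior mRGs. The ranges overlapped at both depths.

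**Figure D2:**
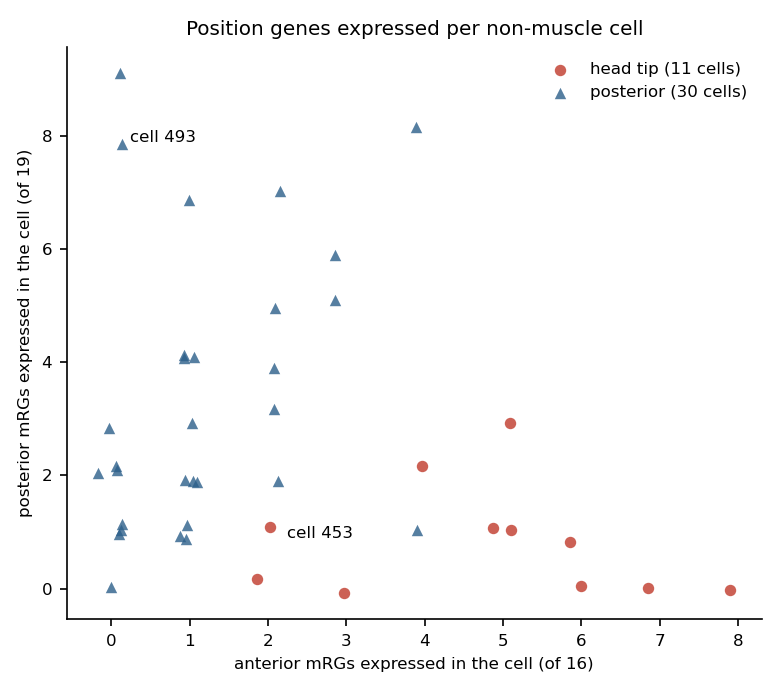
Number of anterior mRGs (of 16) and posterior mRGs (of 19) detected with more than 2 reads in each non-muscle cell. Each point is 1 cell, moved slightly so that points can be told apart, with circles for head tip cells (11) and triangles for posterior cells (30). Head tip cells sit at 2 to 8 anterior and 0 to 3 posterior mRGs, posterior cells at 0 to 4 and 0 to 9.

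The same contrast was made in the muscle cells of the same regions, 11 at the head tip and 47 in regions 7 to 10. There edgeR called 4 of 11497 transcripts (0.0348%). Among them was dd_13065, detected in 0 of 11 and 34 of 47 muscle cells (edgeR adjusted p = 0.0481). The mRGs were selected in muscle cells of this series, so this call gives no support of its own. The difference between the 2 contrasts, non-muscle minus muscle, was tested as an interaction over 10 sums: 0 of 13623 transcripts passed (0.0%), and 295 had an unadjusted p under 0.05 (2.17%). No named transcript was therefore shown to differ between the classes. The head tip shares of ndl-4, ndk and prep were 9, 9 and 10 of 11 non-muscle cells and 9, 11 and 8 of 11 muscle cells, and the interaction estimates were -3.19 (SE 3.66), -0.23 (SE 4.37) and 2.01 (SE 2.74) on the log2 scale, each with an adjusted p of 0.9999. These errors are wide, and the values do not show that the classes act alike.

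Several mRGs had unlike shares in the 2 classes, a difference in share that was not itself tested. The mRGs were selected in the muscle cells and not in the non-muscle cells. High shares in muscle at the matching end therefore follow in part from that selection. fz5/8-3 was detected in 9 of 11 head tip non-muscle cells and in 3 of 11 head tip muscle cells, with an interaction estimate of -0.23 (SE 3.84, unadjusted p = 0.954). ndl-2 was detected in 0 of 11 head tip non-muscle cells and in 8 of 11 head tip muscle cells, and fz5/8-4 in 3 and 10 (interaction -5.14, SE 5.199, unadjusted p = 0.339). notum was detected in 0 of 11 head tip non-muscle cells and in 4 of 11 head tip muscle cells, and its interaction had an unadjusted p of 0.0224 (adjusted p = 0.9999). Among posterior genes, wntP-2 was detected in 0 of 30 posterior non-muscle cells and in 27 of 47 posterior muscle cells, wnt11-2 in 0 and 16, lox5a in 1 and 42 and fz4-1 in 4 and 37. sp5 was detected in 8 of 30 and 20 of 47, Post-2c in 9 and 23 and axin2 in 8 and 28.

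**Figure D3:**
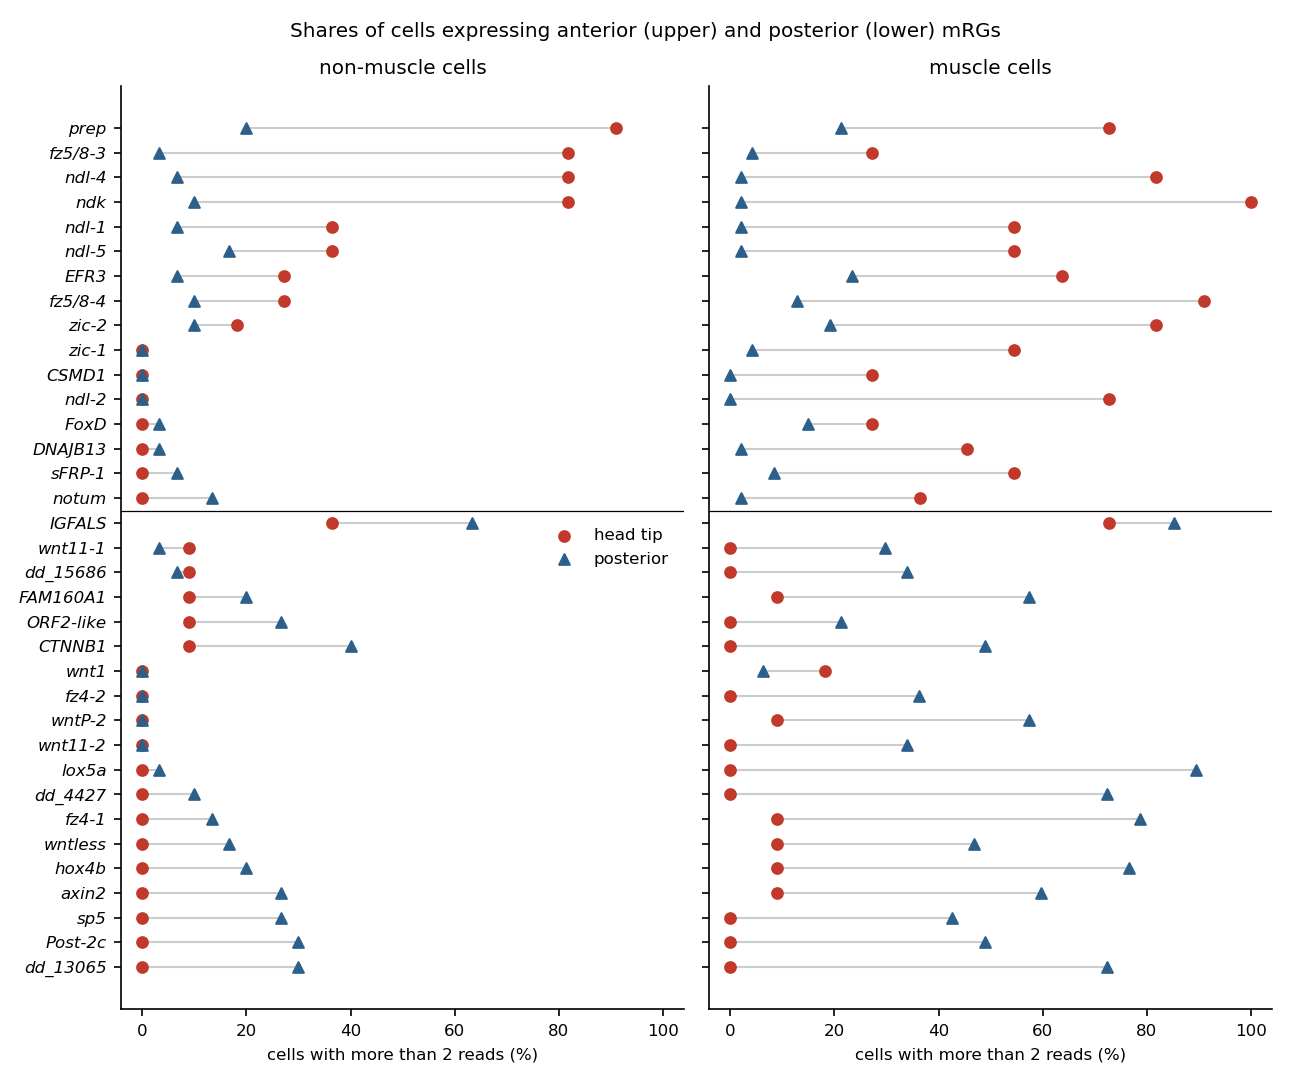
Share of cells, in percent, in which each anterior or posterior mRG was detected with more than 2 reads. Shares are for non-muscle cells and muscle cells at the head tip and in the posterior, and mRGs with another pattern are not shown. Circles are head tip shares (11 non-muscle and 11 muscle cells) and triangles posterior shares (30 non-muscle and 47 muscle cells), joined by a line. ndl-4 is held by 81.8% of head tip cells in both classes, and wntP-2 by 0.0% of posterior non-muscle cells and 57.4% of posterior muscle cells. The mRGs were selected in muscle cells of the series, and not in the non-muscle cells.

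The muscle label was compared with the muscle transcripts. TNNI2 (troponin I, a thin filament protein) was detected in 8 of 11 head tip and 29 of 30 posterior cells, with sums of 38.9 cpm against 122, 18.7, 127 and 48.7 cpm in regions 7 to 10. In the muscle cells its sums were 1543 cpm at the head tip and 1403 to 2319 cpm in the posterior regions, but the study used troponin and these muscle transcripts to separate the classes, so lower levels in non-muscle cells follow from how the cells were chosen. The muscle list of 12 transcripts summed to 4.86, 69.1 and 377.2 cpm (lowest, median, highest) in head tip cells and to 13.2, 237 and 3252 cpm in posterior cells. Of its 12 members, 5 were detected in any head tip cell and 10 in any posterior cell. It had 8 tested members, of which 1 was higher and 7 lower at the head tip. Their median log2 fold change was -2.46, against -0.21 over all transcripts. With number range as a covariate that median was 0.055, against 1.17 over all transcripts. COL4A6 (type IV collagen, dd_1579) was detected in 0 and 13 cells, with sums of 1.69 cpm against 244, 160, 103 and 625 cpm (log2 fold change -7.73, SE 2.75, unadjusted p = 0.0202), and DESeq2 called it (adjusted p = 0.00210, up to 1.0 in other fits). The COL4A6 transcripts dd_2337 and dd_2197 were each detected in 0 head tip and 5 posterior cells. Like dd_1579, they passed the 3-cell filter only by their posterior cells. Cell r10_503 gave 86.0% of the posterior reads of dd_2337, and cell r09_573 gave 82.8% of those of dd_2197. In region 8 the sums of dd_2197 (0.130 cpm) and TNNI2 were below those of the head tip (1.41 cpm for dd_2197). In the main fit most tested muscle transcripts were thus lower at the head tip, but not against every posterior region. Their part in the posterior mRG result and in that of the neoblast list was not tested. In cells with at most 100 cpm of TNNI2, 9 at the head tip and 17 in the posterior, the posterior mRG median was -4.41, and in range B -4.31.

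Neoblast markers had lower levels at the head tip, and none passed the test. The study's list of 12 transcripts on the neoblast side of its cell ordering was chosen on these same cells, so that its direction is not independent evidence. SMEDWI-1 was detected in 0 of 11 head tip cells and in 20 of 30 posterior cells (66.7%, 47.2 to 82.7). Its sums were 0.846 cpm, worth 3 reads, at the head tip and 498, 1182, 119 and 540 cpm in regions 7 to 10. The ratio was 0.00116 (counting interval 0.000238 to 0.00338). The edgeR fit, whose error is the spread between regions, gave a log2 fold change of -9.52 (SE 3.31, unadjusted p = 0.0180). Every posterior region was thus far above the head tip, although 1 cell, cell r08_534 of region 8, gave 65.7% of the posterior reads. In range B it was detected in 0 of 8 and 3 of 7 cells. In muscle cells the transcript was present at both ends, in 8 of 11 head tip and 35 of 47 posterior cells, and the interaction estimate, non-muscle minus muscle, was -9.88 (SE 2.40, unadjusted p = 0.000991, adjusted p = 0.9999). BRULI, an RNA-binding protein gene needed for neoblast maintenance, was detected in 2 and 19 cells (log2 fold change -5.31, SE 2.47). Cell r08_534 gave 68.9% of its posterior reads. In range B, BRULI was detected in 2 of 8 and 3 of 7 cells, at 10.0 and 24.8 cpm (log2 fold change -2.14).

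CBFB, the partner subunit of Runx transcription factors in other animals, was detected in 1 of 11 head tip cells and in 30 of 30 posterior cells. Its levels per cell were 0, 0 and 15.6 cpm at the head tip and 5.77, 167 and 1073 cpm in the posterior, and the sums were 3.10 cpm against 191, 197, 128 and 492.6 cpm (log2 fold change -6.79, SE 2.54, unadjusted p = 0.0253). Thinned to 50000 reads it was detected in 0 head tip and 24 posterior cells, and in range B in 1 of 8 and 7 of 7. A beta-actin transcript (dd_1610) of the same list had 0 reads at the head tip and was detected in 18 posterior cells, at least 132-fold lower at the head tip. The prohormone convertase gene PC-2, a neuronal gene that the list also holds, was detected in 0 and 4 cells, and cell r07_570 gave 77.5% of its posterior reads. Over the list, 12 of 12 tested members were lower at the head tip, with a median log2 fold change of -5.97 (-4.79 with genes at 0 at their bound), 3 with an unadjusted p under 0.05 (background 1.03%) and 6 below the size rule (background 1.23%). DESeq2 called SMEDWI-1 (adjusted p = 4.6e-05), CBFB (0.00712) and the beta-actin transcript (0.00790), edgeR called SMEDWI-1 on thinned cells (0.00276), limma called CBFB (0.00317), and the adjusted p of each reached 1.0 in other fits. Its sum per cell ran over 754, 1524 and 3168 cpm at the head tip and over 1194, 4053 and 12500 cpm in the posterior, so the ranges overlapped.

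Most members of the lists of the differentiating side had higher levels at the head tip. Of the 12 transcripts of the epidermal lineage list, 9 were higher and 3 lower at the head tip (median log2 fold change 0.95), and of 11 tested members of the differentiated list, 8 were higher and 3 lower (median 1.23). With number range as a covariate these medians were 4.405 and 4.00, against -3.99 for the neoblast list and 1.17 over all transcripts. Both lists were also chosen on these cells, and 0 members of either had an unadjusted p under 0.05. P53, a marker of the epidermal lineage, was detected in 10 of 11 head tip cells and in 10 of 30 posterior cells. Its sums were 892 cpm at the head tip and 47.1, 520, 56.4 and 303 cpm in regions 7 to 10, with a log2 fold change of 1.83 (SE 1.64). ZFP-1, the zinc-finger gene of the same lineage, was detected in 10 and 20 cells, and its head tip sum of 502.7 cpm was within the posterior range of 38.3 to 514.4 cpm. EPB41L2, which belongs to the band 4.1 family of membrane-cytoskeleton linkers, was detected in 10 and 14 cells, with 634 cpm against 77.3, 195, 16.4 and 78.7 cpm (log2 fold change 2.68, SE 1.27, unadjusted p = 0.0640). Among the differentiated transcripts, DMD (dystrophin, dd_5252) was detected in 11 of 11 head tip and 9 of 30 posterior cells, with 353 cpm against 22.7, 39.4, 0 and 92.1 cpm, and limma called it (adjusted p = 0.00703, up to 1.0 in other fits). A head tip cell held a median of 12 of the 12 epidermal lineage transcripts and a posterior cell 9.5, and for the differentiated list the medians were 10 and 5.

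**Figure D4:**
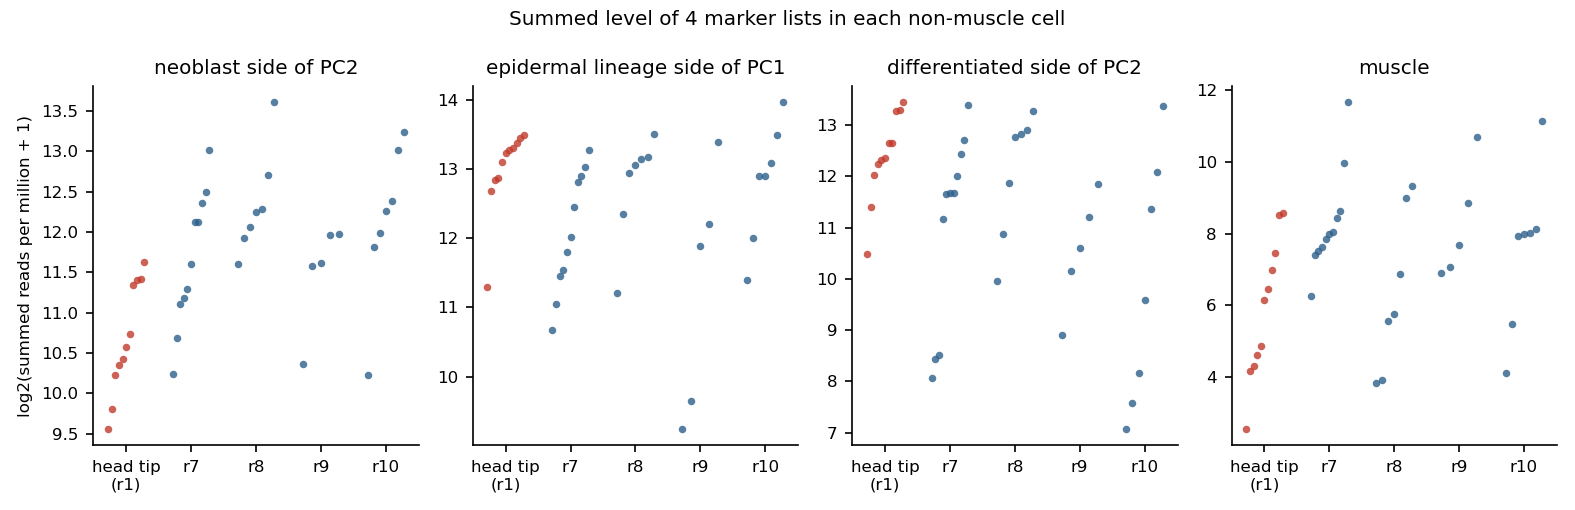
Summed level, as log2(summed cpm + 1), of 4 marker lists in each of the 41 cells. Each point is 1 cell, with head tip cells left of regions 7 to 10, and each panel has its own axis. The neoblast list has a median of 1524 cpm in head tip cells and 4053 cpm in posterior cells, the epidermal lineage list 9633 and 6416 cpm, the differentiated list 5250 and 2914 cpm and the muscle list 69.1 and 237 cpm.

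Over all transcripts, pairs of head tip cells had a higher median likeness than pairs of posterior cells. The likeness of a pair was Pearson's r of log2(cpm + 1) over 8318 transcripts, each cell thinned to 50000 reads. It is a description: pairs share cells and, in part, number range, and r was low throughout. The median was 0.36 over 55 pairs of head tip cells (range 0.15 to 0.44), or 0.37 without cell r01_453 (45 pairs, range 0.31 to 0.44), 0.28 over 435 pairs of posterior cells (range 0.15 to 0.42) and 0.22 over 330 mixed pairs. The most similar cell of a head tip cell was another head tip cell in 10 of 11 cases, and the most similar cell of a posterior cell was a head tip cell in 1 of 30.

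Cells r01_453 and r10_493 stood apart from their own end, and were singled out after their values were seen. Cell r01_453 of the head tip had a median r of 0.17 to other head tip cells and 0.21 to posterior cells, and its nearest cell was cell r09_451 of region 9. It had 0 reads of ndl-4, ndk, fz5/8-3, P53 and ZFP-1, but 1076 cpm of prep. Cell r10_493 of region 10 had a median r of 0.36 to head tip cells and 0.18 to posterior cells, with cell r01_441 of the head tip as its nearest (r = 0.38). Of 51 transcripts detected in at least 9 head tip and at most 3 posterior cells at 50000 reads, cell r10_493 held 49, cell r01_453 held 3, and the next posterior cell, cell r08_450, held 21. In cell r10_493, however, the position genes were those of the tail: 0 anterior mRGs and 8 posterior mRGs were detected, among them axin2 at 272 cpm, dd_13065 at 112 cpm and sp5 at 40.4 cpm, while ndl-4, fz5/8-3 and ndk had 0 reads. Cell r10_493 thus held most of the transcripts shared by head tip cells and none of the anterior mRGs. Cell r08_450, cell r08_521 and cell r08_535 of region 8 were also more like head tip than posterior cells. Cells r10_493, r08_450 and r08_521 were in number range B, as were 8 of the 11 head tip cells, and cell r08_535 was in range C. The part of number range in these likenesses was not tested.

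**Figure D5:**
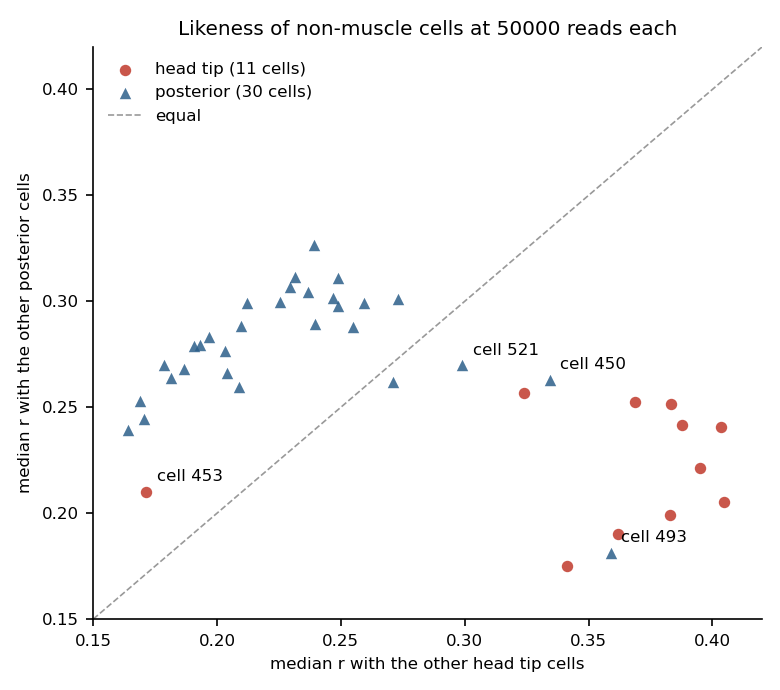
Median Pearson's r of each cell to the head tip cells and to the posterior cells, for log2(cpm + 1) of 8318 transcripts at 50000 reads, with named cells marked by their numbers. Circles are head tip cells, triangles posterior cells, and the dashed line marks equal values. Head tip cells lie on the head tip side except cell r01_453 (0.17 to head tip, 0.21 to posterior), and cell r10_493 of region 10 lies among the head tip cells (0.36 and 0.18).

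Of the transcripts outside these lists, RGMB (repulsive guidance molecule B, a BMP co-receptor gene in vertebrates) was detected in 8 of 11 head tip cells and 0 of 30 posterior cells. Its sums were 103 cpm at the head tip and 0, 0, 0.274 and 0 cpm in regions 7 to 10, and the pooled posterior level rested on 1 read (ratio 1766, counting interval 315 to 69940, unadjusted p = 0.00583). RAB11FIP3, an effector of the recycling GTPase Rab11, was detected in 3 head tip cells and had 0 reads in the posterior, at least 358-fold higher at the head tip, with 75.7% of its reads in 1 cell. PRMT5, an arginine methyltransferase gene, had 0 reads at the head tip and was detected in 9 posterior cells, at least 40.03-fold lower at the head tip. Among transcripts without a name, dd_18131 was detected in 8 head tip cells and had 0 reads in the posterior (467 cpm, at least 2669-fold higher, unadjusted p = 0.000309), and dd_13019 was detected in 4 and 0 cells. In the other direction dd_413 and dd_3973 had 0 reads at the head tip and were detected in 16 and 18 of 30 posterior cells, at least 208-fold and 134-fold lower. In range B, dd_18131 was detected in 5 of 8 and 0 of 7 cells, and dd_413 in 0 and 2. All transcripts of this paragraph were named for a low unadjusted p in this same contrast. Each passed the 3-cell filter only by the cells of 1 end. Their shares, fold differences and calls therefore give no support of their own. DESeq2 called dd_18131, dd_13019, PRMT5, dd_413 and dd_3973 (adjusted p = 0.00286 to 0.0335), and limma called RGMB, RAB11FIP3, dd_18131 and dd_13019 (1.5e-05 to 0.0200), each with an adjusted p of up to 1.0 in other fits.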

How the data were processed

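Each cell was sequenced in 2 runs, and the authors, per the labels and the study's methods, trimmed reads with cutadapt, aligned them with Bowtie to a transcript assembly (CASAVA 1.7.0 is also named), dropped abundant mitochondrial and ribosomal transcripts, summed contigs of a transcript and kept cells above a minimum of expressed transcripts. The authors deposited whole-number read counts for 26560 transcripts in 177 cells, with no normalization. Their log2 ratios and Z-scores for muscle cells were not used. Reads per cell are not molecules, since there are no molecular identifiers, and abundant amplified fragments count repeatedly.

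Counts of the 41 cells were summed by region, and transcripts that exceeded 2 reads in 3 or more cells were tested with edgeR 4.0.16 (TMM, quasi-likelihood, Benjamini-Hochberg, threshold 0.05) in R 4.3.3. DESeq2 1.42.0 on the same sums and limma 3.58.1 on regional means over cells of log2(cpm + 1), 5 values per transcript, were alternatives. Cells were thinned to 50000 reads for shares. No doublet caller was run. Doubling was addressed only by leaving out cells with more than 5000 expressed transcripts. Scripts were tested on simulated data. Named were the FGFRL genes and each other mRG held by at least 3 of the 41 cells, the 4 members of each other list with the lowest unadjusted p, the 5 named transcripts per direction with the lowest unadjusted p, 2 unnamed transcripts per direction, and 6 defining markers. The members and lists were chosen with earlier results of these data known. Figures used matplotlib 3.10.9, and counts and shares Python 3.11.15 with scipy 1.17.1. Replicates here are regions, not animals, so p-values measure the spread between regions only.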

Additional observations from a re-analysis of the deposited data

Results flagged for a closer look

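Dixon's test over the 4 posterior regions was applied to 69 named transcripts on log2(cpm + 1), and to the median reads per cell without logs. It marked 9 values. Chance marks about 1 in 20 groups of continuous values. Where all but 1 posterior region had 0 cpm, the test marks the group whatever the level of that region. This held for ndl-4, fz5/8-3, fz5/8-4, RGMB and dd_13019, whose marks therefore carry no information of their own. Region 8 stood apart for ndl-4 (16.1 cpm, against 0, 0 and 0 cpm), and region 7 for fz5/8-3 (24.4 cpm, against 0 in the other posterior regions). Region 10 stood apart for fz5/8-4 (391.3 cpm), ndl-1 (42.8 cpm) and wntless (30.2 cpm). Region 9 was the low one for wntA (3.01 cpm) and stood apart for RGMB (0.274 cpm, 1 read). For dd_13019, region 8 had 0.260 cpm. The median reads per cell of region 8, 1041000, was above that of the other posterior regions (210200 to 333100). In most of these the separate region rests on 1 or a few cells, and whether its level is biological or technical was not tested.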

How the results depend on the processing

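The count of 0 transcripts called by edgeR held with poscounts size factors, a filter of 8 cells, all 9 regional sums, range B alone, number range as a covariate, and without each posterior region, cell r01_453, cell r10_493, cells over 5000 transcripts or cells over 100 cpm of troponin I. Leaving out cell r01_453 or cell r10_493 was chosen after seeing the data. The share called was 0.0771% with library size alone (9 transcripts), 0.0315% with no filter (6), 0.0688% after thinning to 50000 reads (8), 0.788% with DESeq2 (14 higher and 78 lower at the head tip), and 3.42% and 3.68% with limma on log2(cpm + 1) and log2(cpm + 10), of which nearly all were higher (3.38% and 3.64%). DESeq2 gave no adjusted p for 4095 transcripts. The interaction share of 0.0% became 0.426% with DESeq2 (58 transcripts) and 0.0368% after thinning (5). The cause of these differences was not tested. With a 2-fold size rule 11.0% of transcripts lay above and 2.82% below. Without each posterior region, 4.97% to 10.7% lay above and 1.62% to 3.33% below. Above calls were 79.2% of those past the size rule, 59.9% without region 9 and 86.8% without region 8. The median over all transcripts moved between -0.74 with no filter and 1.17 with number range as a covariate (0.01 with library size alone, -0.41 with poscounts). No fold change printed for a single transcript reversed, and 18 of 69 named transcripts changed sign under some of 19 alternatives, for which levels alone are given.

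The anterior mRG median was 1.20 with limma (10 cpm added), 4.52 with the 8-cell filter and 2.65 to 4.44 without each region. The posterior mRG median was -1.17 and -0.60 with limma (1 and 10 cpm added), -3.90 with no filter, -4.39 thinned, -4.31 in range B, -3.80 with the range as covariate, -4.41 without troponin I cells and -6.43 to -4.42 without each region. For the neoblast list it was -3.05 and -1.97 with limma, -4.64 with the 8-cell filter, -3.64 thinned, -2.53 in range B, -3.99 with the range as covariate, -4.76 without cells over 5000 transcripts and -6.13 to -4.855 without each region. The epidermal lineage and differentiated lists had 2.59 and 2.92 with limma (1 cpm added), and 4.405 and 4.00 with the range as covariate. The muscle list had -0.40 and -0.21 with limma, -5.01 with the 8-cell filter, -0.72 in range B, -1.003 without troponin I cells and 0.055 with the range as covariate. The in situ lists changed sign in some fits. The nervous system list had 0.22 and 0.12 with limma and 1.36 with the range as covariate. The epidermis list had 1.19, 0.47 and 1.57 in the same fits and 0.044 thinned. The gut list had 0.18, 0.035 and 0.53 in the same fits and 1.18 in range B. The pharynx list had 0.20 with limma (1 cpm added), 0.92 in range B and 1.01 with the range as covariate. Under the 8-cell filter it had -2.94. Over all transcripts the medians were 0.31 and 0.12 with limma, 1.17 with the range as covariate, 0.12 in range B and -0.08 thinned. With limma (1 cpm added), nervous system, gut and pharynx lay below all transcripts, as in the main fit, and epidermis above. With the covariate, gut and pharynx lay below, and in range B above. Detected transcripts per head tip cell were 2868 thinned and 5717 with 1 read. Thinned, 0.0% of posterior cells held ndl-4 and 80% held CBFB, against 0.0% of head tip cells for CBFB, and with 1 read 100% of head tip cells held prep.

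No paired analysis was possible because the labels share no replicate number between regions. A share over 11 or 30 cells is imprecise: 0 of 11 cells allows up to 28.5%, and 0 of 30 up to 11.6%.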

Other observations

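The lists of genes with in situ patterns outside the mRGs had no member with an adjusted p under 0.05 in edgeR. Of 45 tested genes with a central nervous system pattern, 18 were higher and 27 lower at the head tip (median log2 fold change -0.56). The epidermis list had 6 higher and 9 lower of 15 (median -0.999), the gut list 4 and 7 of 11 (median -0.56) and the pharynx list 0 and 4 of 4 (median -1.09), against -0.21 over all transcripts. Head tip cells held a median of 15 of the 61 nervous system transcripts, and posterior cells 9.5. The signs of these medians changed with the processing, and so did that of the median over all transcripts.

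Single cells carried many of the named values. CELF5, an RNA-binding protein gene, was detected in 1 of 11 head tip cells, cell r01_453, at 1649 cpm, and in 3 of 30 posterior cells. PCDH17, a protocadherin gene, reached 678 cpm in the same head tip cell, and EXOC6B, an exocyst subunit gene, 1355 cpm. ALX1, a homeobox gene, had 0 reads at the head tip and 509 cpm in region 10, with 76.3% of the posterior reads in 1 cell, cell r10_556. SCARB2, a lysosomal membrane protein gene with a gut pattern, had 0 reads at the head tip and was detected in 5 posterior cells, at least 58.5-fold lower at the head tip. ALX1 and SCARB2 passed the 3-cell filter only by their posterior cells. dd_4374, with a nervous system pattern, was detected in 7 of 11 head tip cells and 7 of 30 posterior cells, at 178 cpm against 8.00, 24.6, 6.30 and 39.5 cpm.

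In the 21 non-muscle cells of the regions between, ndl-4 was detected in 2 cells, ndk in 1, fz5/8-3 in 1 and prep in 6, while sp5 was detected in 6, Post-2c in 1, axin2 in 7 and dd_13065 in 3. The sums of sp5 were 260, 314 and 75.6 cpm in regions 3, 4 and 6, above the highest posterior sum of 72.9 cpm. For prep, region 3 had 308 cpm, near the 326 cpm of the head tip. The highest sums between were 81.5 cpm for ndl-4, 7.78 for ndk and 3.61 for fz5/8-3. For Post-2c, dd_13065 and axin2 they were 7.78, 25.6 and 161 cpm.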
